A study of Rattus norvegicus with 47 samples.

Results

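Kidney gene expression was compared between rats whose glomeruli showed podocyte hypertrophy without mesangial matrix increase (PH only) and rats that showed mesangial matrix increase without podocyte hypertrophy (MMI only). Of the 47 samples of the series, 16 were kidney mRNA libraries, each from 1 rat, and 11 of these came from rats with a single lesion. The PH only group held 6 rats, the SD-fed rats 1244, 1245 and 1246 and the HFD-fed rats 1259, 1271 and 1275. The MMI only group held 5 rats, the SD-fed rats 1247, 1248 and 1250 and the HFD-fed rats 1255 and 1274. The remaining libraries came from 3 HFD-fed rats with both lesions (1252, 1256 and 1267) and 2 SD-fed rats with neither (1249 and 1251), and they are given only as side values. All animals were male Wistar Han rats without genetic modification, 7 weeks old at the start, fed a standard diet (SD) or a high-fat diet (HFD) for 10 weeks. The deposited sample labels give the diet of each rat but not its lesion. Lesions were assigned by rat number as the study groups them, and they could not be checked against the expression files. Those of the rats with both lesions or neither were read only from the column labels of the study's lesion heatmaps. The paper describes early lesions in all HFD-fed rats and names MMI and PH among them. How this stands beside HFD-fed rats assigned a single lesion could not be checked. The RNA came from pieces of whole kidney. In such bulk tissue, fewer cells of a type and less RNA per cell cannot be told apart.

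Podocytes are the epithelial cells that wrap the glomerular capillaries, and their interlocking foot processes and slit diaphragms complete the filtration barrier. The podocyte and the endothelium together lay down the glomerular basement membrane, which is built mainly from type IV collagen and laminin. Mesangial cells lie between the capillary loops, hold them together and secrete the mesangial matrix. In obesity-related glomerulopathy glomeruli enlarge, podocytes grow to cover a larger surface and mesangial matrix accumulates, so that both lesions can be seen in one kidney or apart. The comparison asks how the kidney transcriptome differed between animals carrying one lesion and animals carrying the other.

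Values are normalized counts as deposited, whose totals ran from 17623700 to 22565800 per library. Within the MMI only group, rats 1247, 1248, 1255 and 1274 stood apart from rat 1250. A set of 16 genes reached at least 50 normalized counts in all 6 PH only rats and in rat 1250 and were over 10-fold lower in each of those 4 rats, whereas 0 genes showed the reverse. Mif, which encodes macrophage migration inhibitory factor, was one of them, with 3019 to 5346 in the PH only rats and 6052 in rat 1250 but 137, 271, 165 and 155 in rats 1247, 1248, 1255 and 1274. The median over the 16 genes was 209 to 300 in the PH only rats, 309 in rat 1250 and 3.52 to 7.47 in the 4 rats. Rat 1252, with both lesions, also had a low median of 4.50. These genes were short, with a median gene span of 2536 bases, against 24313 bases over all tested genes. Across the 13397 tested genes with a span, the log2 fold change between the lesion groups fell with span (Spearman correlation −0.25, across genes, which are not independent replicates). When the genes were divided into 4 equal sets by span, the median log2 fold change was 0.28 in the shortest set and −0.18 in the longest. The part of this gene length pattern in the results was not tested beyond the values given with it. The 6 PH only rats were therefore also compared with rat 1250 alone, with the spread of that single rat taken from the PH only rats. The log2 fold change from this comparison stands beside each printed log2 fold change or list median that it turned in sign or moved by over 1.5 times. A gene named without a log2 fold change may have moved as much.

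**Figure D1:**
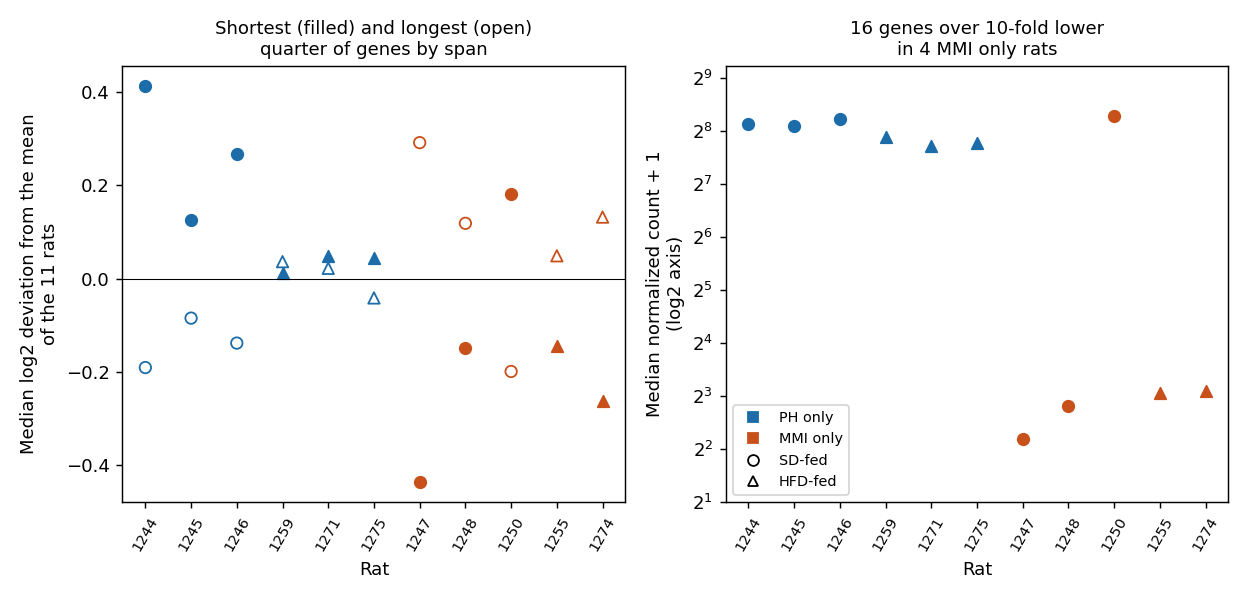
Left, median log2 deviation of each library from the mean of the 11 single-lesion rats, for the shortest (filled) and longest (open) of 4 equal sets of genes by span. Right, median normalized count plus 1 (log2 axis) of the 16 genes over 10-fold lower in 4 MMI only rats, which was 3.52 to 7.47 in those rats, 309 in MMI only rat 1250 and 209 to 300 in the PH only rats. The 16 genes were picked for this gap.

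Rat 1255 differed from the other MMI only rats in markers of the collecting duct and the urothelium. Aqp4, a water channel of the collecting duct, was 11688 in rat 1255 and 751 to 3820 in the other 4 MMI only rats. Upk1b, a uroplakin of the urothelium that lines the renal pelvis, was 2074 in rat 1255 and 8.85 to 43.3 in the others. The urothelial list summed to 11374 normalized counts in rat 1255, 2073 to 4043 in the other MMI only rats and 3758 to 7530 in the PH only rats. Adipocyte genes summed to 18524 and 13264 in PH only rats 1244 and 1245 and to 19475 in rat 1255, and to at most 5531 in the other 8 rats, so that adipocyte genes differed between rats within both groups. The part of these tissues in the results was not tested.

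The libraries of the lesion groups lay apart, except for that of MMI only rat 1250. On the first principal component of the 11 rats, which held 53.2% of the variance, the PH only rats scored −71.1 to −24.7. MMI only rats 1247, 1248, 1255 and 1274 scored 82.3, 61.7, 58.1 and 81.6, and rat 1250 scored −21.7, beside the PH only rats. The difference of group means was 96.0 (exact permutation test over 462 assignments of the 11 rats, two-sided p = 0.00216, the smallest it can give). The mean Euclidean distance between log2 profiles was 127 for the 30 pairs across groups, 75.4 for the 15 PH only pairs and 104 for the 10 MMI only pairs. Libraries of different lesions were thus 39.8 units (45.8%) farther apart than libraries sharing a lesion, and no other assignment of the rats can give a smaller p than the 0.00433 found by exact permutation (two-sided). The nearest library of rat 1250 was PH only rat 1275, while each of the other 10 rats was nearest to a rat of its own lesion group. Of the rats outside the comparison, rat 1252 with both lesions scored 71.4 on the same component. The other rats with both lesions scored −16.3 and 1.83, and the rats with neither scored 0.43 and −1.10.

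**Figure D2:**
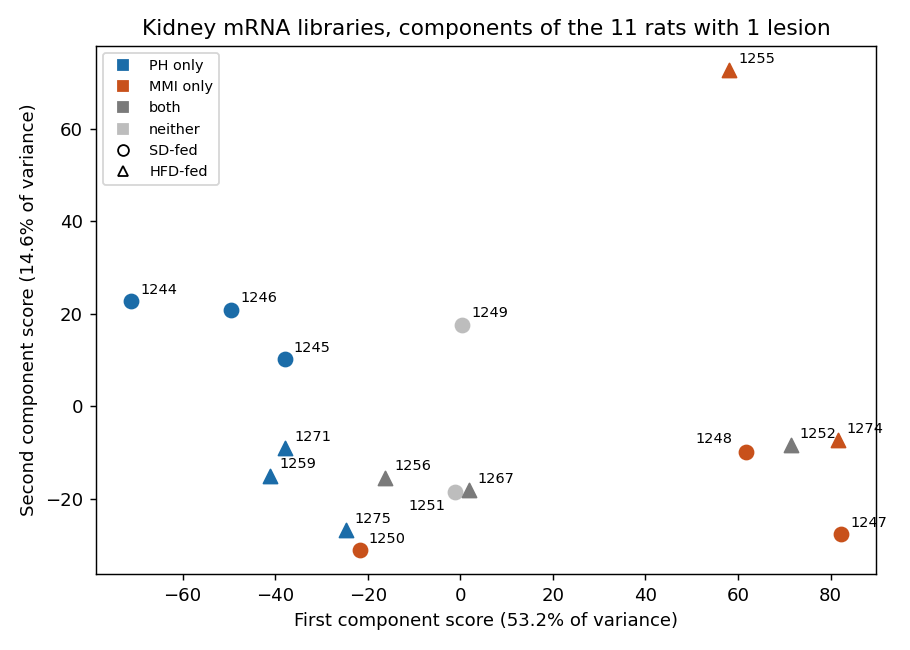
Scores of the kidney mRNA libraries on the first (53.2% of variance) and second (14.6%) components of the 11 single-lesion rats, with the 5 other rats projected. Circles are SD-fed and triangles HFD-fed rats. MMI only rat 1250 lies at −21.7 beside the PH only rats (−71.1 to −24.7), and the other 4 MMI only rats lie between 58.1 and 82.3.

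Of 13673 genes tested with limma, 2845 were higher in PH only rats (20.8% of those tested) and 2038 were lower (14.9%) at an adjusted p under 0.05, and 6488 had an unadjusted p under 0.05. A log2 fold change over 1 was reached by 1687 of the higher genes (12.3%) and a change under −1 by 239 of the lower genes (1.75%). The groups did not overlap for 1151 genes that were higher in all PH only rats (8.42%) and for 718 genes that were lower in all of them (5.25%). The median log2 fold change over all genes was −0.03. Leaving out rat 1250 raised the genes called lower from 2038 to 3229, while leaving out rat 1274 or rat 1247 reduced them to 1006 and 1160. Leaving out these rats also moved the genes under −1 from 239 to 526, 130 and 155.

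Against rat 1250 alone, 5 genes were called higher in the PH only rats (0.0366%) and 0 were called lower (0%) by limma, and 2132 genes had an unadjusted p under 0.05. The 5 genes, named after their values were seen, were LOC102555453, LOC691254, Lnpep, LOC100911917 and LOC100912481, and 1 of them (LOC102555453) was called in the 11 rats. The lack of further calls in this comparison does not show that rat 1250 was like the PH only rats. The genes called in the 11 rats were chosen with rat 1250 among them. Those called higher had a median log2 fold change of 1.15 in the 11 rats and 0.46 against rat 1250. Those called lower had a median of −0.55 in the 11 rats and −0.23 against rat 1250.

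The comparison was repeated within each diet. Among SD-fed rats alone, with 3 against 3 rats, 197 genes were called higher (1.44%) and 4 lower (0.0293%) with PH only, and 4002 genes had an unadjusted p under 0.05. The 4 lower genes, listed for their small number, were Phyhipl, Sema6d, Mcoln3 and LOC100910130. Among HFD-fed rats, with 3 against 2 rats, 2455 genes were called higher (18.0%) and 1627 lower (11.9%), and 6066 had an unadjusted p under 0.05. Rat 1250 is SD-fed, and both HFD-fed MMI only rats are among the 4 that stood apart. The lesion difference was not found to depend on diet for any gene after adjustment, with 0 genes called for the interaction in limma (0%) and 1550 at an unadjusted p under 0.05. Col3a1, the interstitial type III collagen, had 2.36 in SD-fed and −0.08 in HFD-fed rats (log2 fold changes, named after its values were seen).

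**Figure D3:**
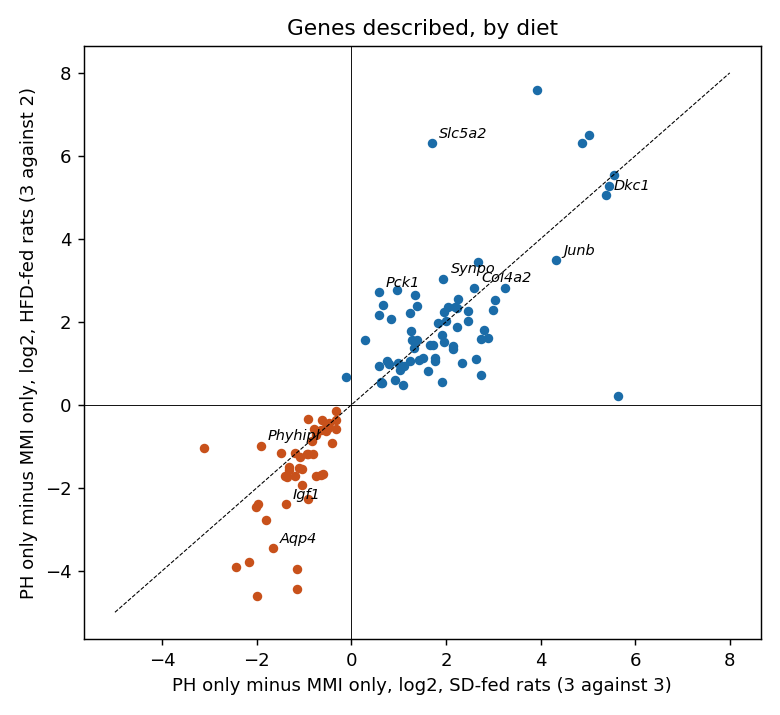
Log2 fold change (PH only minus MMI only) of the genes described, in SD-fed rats (horizontal axis, 3 against 3 rats) and HFD-fed rats (vertical axis, 3 against 2 rats). Blue points had a positive and orange points a negative log2 fold change in the 11 rats, whether called or not, and the dashed line marks equal differences. Pck1 lies at 0.58 in SD-fed and 2.71 in HFD-fed rats.

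The basement membrane collagens of the α1 and α2 chains were among the genes with the smallest p. Col4a1 and Col4a2 encode the chains that join into the type IV collagen of most basement membranes and of the mesangial matrix. Col4a1 (ENSRNOG00000016281) ran from 2333 to 3772 in the PH only rats with a median of 3220, and was 735, 1102, 1063, 1371 and 1007 in MMI only rats 1247, 1248, 1250, 1255 and 1274. Every PH only rat lay above every MMI only rat, rat 1250 included. The log2 fold change was 1.58 (SE 0.16, adjusted p = 0.000729) and 1.54 against rat 1250 alone. Col4a2 (ENSRNOG00000023972) ran from 966 to 2300 with a median of 1426 in the PH only rats, and was 148, 240, 326, 302 and 153 in the MMI only rats in the same order. Its groups were again separate, with a log2 fold change of 2.70 (SE 0.28, adjusted p = 0.000729) and 2.14 against rat 1250. Col4a1 was 829, 1087 and 1939 in the rats with both lesions and 1095 and 1113 in those with neither, so that all of these lay below the PH only range.

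Col4a1 and Col4a2 are arranged head to head on rat chromosome 16 and share the stretch between their transcription starts. It is shown here because the genes moved together and any promoter sequence in it is common to both. In RefSeq's annotation of the GRCr8 build the starts lie 76 bases apart, and the stretch between them (chr16:84885521-84885596, plus strand, 5′ to 3′) reads as follows, with the GC box in capitals.
Col4a1-Col4a2: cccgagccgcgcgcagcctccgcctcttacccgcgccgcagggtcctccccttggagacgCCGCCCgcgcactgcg
The capitals mark the 1 match to the GC box GGGCGG, which lies on the minus strand, and the CCAAT box (CCAAT) had 0 matches in this window on either strand. Of 27457 RefSeq promoters, 19.3% held the GC box and 13.0% the CCAAT box on either strand in the 76 bases before the start. A match describes the letters only and is not a binding site shown by these data.

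Across the basement membrane list, 7 of 21 measured genes (33.3%, against 20.8% of all genes) were higher with PH only and 0 were lower (14.9% of all genes). The median log2 fold change was 0.16, with 0.09 without rat 1250, 0.41 without rat 1255 and 0.79 against rat 1250 alone. Besides Col4a1 and Col4a2 the higher genes were Col4a3, Lama5, Lamb2, Nid2 and Col18a1. Lama5 and Lamb2 encode the α5 and β2 chains of the laminin of the mature glomerular basement membrane. Lama5 ran from 1320 to 5549 (median 2576) in the PH only rats and was 366, 415, 1135, 749 and 352 in the MMI only rats, without overlap (log2 fold change 2.23, SE 0.37, adjusted p = 0.00173, and 1.16 against rat 1250). Col18a1, the source of endostatin, ran from 3758 to 6401 (median 5068) against 939, 1555, 1948, 3639 and 1749, also without overlap (1.50, SE 0.28, adjusted p = 0.00253). Lamb2 had a log2 fold change of 1.15 (SE 0.21, adjusted p = 0.00261). Col4a3, the α3 chain that podocytes make, had 0.59 (SE 0.18, adjusted p = 0.0258, and 1.06 against rat 1250). Col4a4 and Col4a5, its partner chains, were at −0.27 and 0.12 (0.38 and 0.79 against rat 1250) and did not pass the test. The calls thus covered the α1 and α2 chains and 1 of the 3 chains of the glomerular network that are named here.

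**Figure D4:**
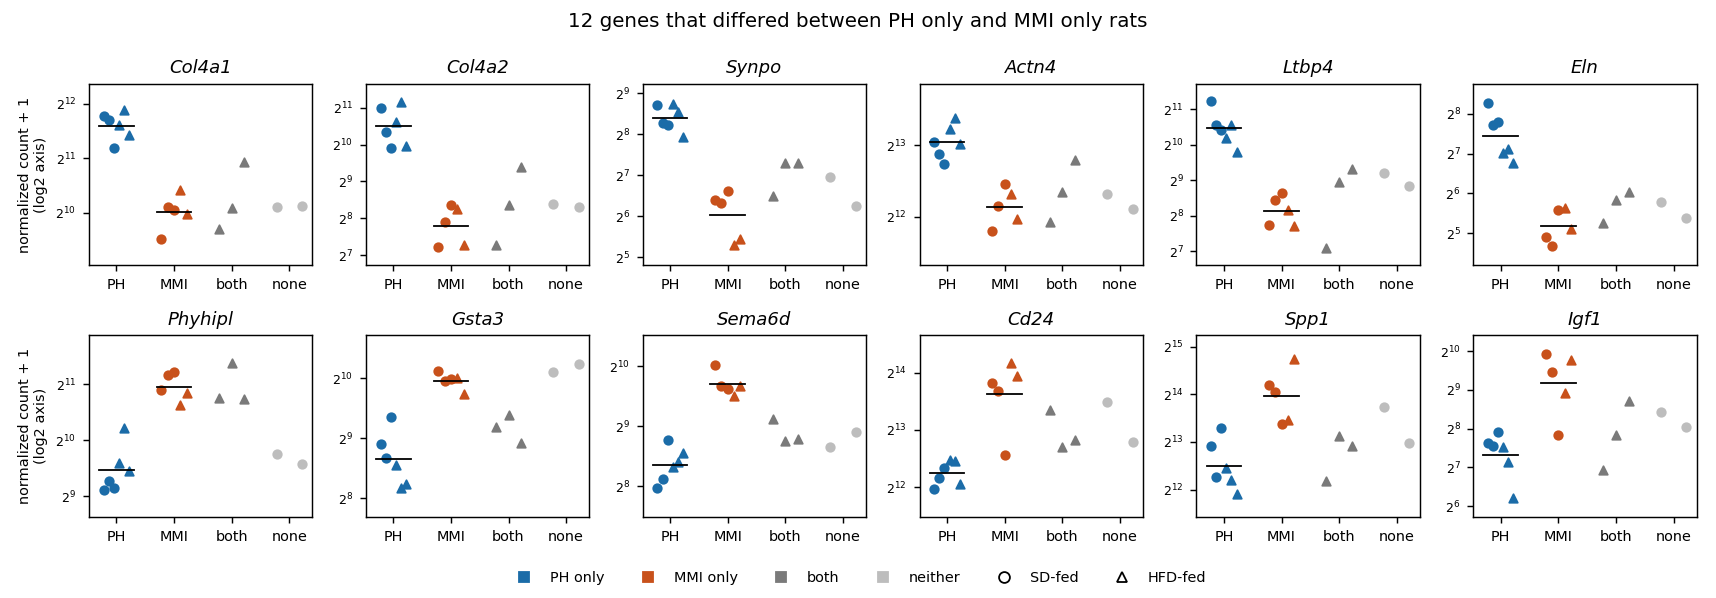
Normalized count plus 1 (log2 axis) of 12 genes in each rat, by lesion group (PH only, MMI only, both lesions, neither lesion). Circles are SD-fed and triangles HFD-fed rats, and the line is the mean on the log2 scale. Col4a1, Col4a2, Synpo, Actn4, Ltbp4 and Eln were higher in every PH only rat than in any MMI only rat, and Phyhipl, Gsta3, Sema6d, Cd24 and Spp1 were lower in every one. Igf1 was lower with PH only but overlapped, with 227 in MMI only rat 1250 against a highest PH only value of 238.

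Most podocyte genes were higher in the PH only rats. Of 22 measured genes of the podocyte list, 15 were called higher (68.2%, against 20.8% of all genes) and 1 was called lower (4.55%, against 14.9%). The median log2 fold change was 0.91, against −0.03 over all genes. The median was 0.57 in SD-fed rats, 1.31 in HFD-fed rats and 0.64 against rat 1250 alone. The mean log2 deviation of the list was 0.26 to 0.53 in the PH only rats and −0.43, −0.28, −0.26, −1.13 and −0.50 in MMI only rats 1247, 1248, 1250, 1255 and 1274, so that no MMI only rat reached the lowest PH only rat. The summed level of the list was 22116 to 28635 in the PH only rats and 16292 to 20618 in the MMI only rats. The 15 genes included Nphs1, Synpo, Wt1, Ptpro, Magi2, Kirrel1, Tcf21, Nes, Dach1, Foxc2, Lmx1b, Actn4 and Inf2, and 10 of the 15 did not overlap between groups (8.42% of all genes).

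The actin regulators of the foot process were clearly separated between the groups. Synpo (synaptopodin, ENSRNOG00000019181), which bundles actin in foot processes, ran from 243 to 431 (median 339) in the PH only rats and was 83.8, 79.5, 97.8, 38.2 and 42.7 in the MMI only rats. The lowest PH only value was over the highest MMI only value, that of rat 1250 (log2 fold change 2.38, SE 0.26, adjusted p = 0.000938, and 1.78 against rat 1250). Actn4, an actin crosslinker, ran from 6840 to 10643 (median 8347) against 3577, 4524, 5621, 5108 and 3987 (0.91, SE 0.15, adjusted p = 0.00164, and 0.59 against rat 1250). Inf2, a formin that regulates actin polymerization, ran from 89.6 to 200 (median 166) against 21.5, 24.6, 55.3, 57.5 and 12.9 (2.26, SE 0.38, adjusted p = 0.00184, and 1.37 against rat 1250). For Actn4 and Inf2 too, every PH only rat lay above every MMI only rat.

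Other podocyte genes, named after their values were seen, were less even. Nphs1 (nephrin), the main adhesion protein of the slit diaphragm, ran from 1047 to 1545 (median 1215) in the PH only rats and was 394, 392, 711, 127 and 434 in the MMI only rats (log2 fold change 1.78, SE 0.33, adjusted p = 0.00268, and 0.80 against rat 1250). Rat 1255 had the lowest value and rat 1250 the highest of its group, and the groups did not overlap. Wt1, a transcription factor that maintains podocytes, ran from 187 to 256 (median 240) against 148, 128, 176, 21.9 and 127 (1.23, SE 0.43, adjusted p = 0.0414). Its call was lost on leaving out any of 8 rats, and its log2 fold change was 0.70 without rat 1255 and 0.40 against rat 1250. Podxl (podocalyxin), which coats podocytes but also endothelium, had a log2 fold change of 0.23 (SE 0.29, adjusted p = 0.562) that turned to −0.10 without rat 1255 and was 0.44 against rat 1250. Plce1, a phospholipase mutated in inherited nephrotic syndrome, was the list's only member called lower, with 197 to 297 (median 236) against 810, 613, 213, 743 and 544 (−1.13, SE 0.29, adjusted p = 0.0117). Rat 1250 lay within the PH only range for Plce1 and gave a log2 fold change of 0.19 alone.

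Mesangial and pericyte markers did not pass the test. Of 11 measured genes, 0 were called in either direction by limma (20.8% higher and 14.9% lower of all genes). The median log2 fold change was 0.14, and it was −0.13 without rat 1250 and 0.64 against rat 1250 alone. The summed level was 1431 to 2105 in the PH only rats and 1146 to 2172 in the MMI only rats, with rat 1250 lowest and rat 1248 highest. Pdgfrb, the receptor that mesangial cells and pericytes need for their recruitment, ran from 278 to 498 (median 333) and was 234, 397, 159, 195 and 232 (0.57, SE 0.22, adjusted p = 0.0618, and 1.11 against rat 1250). Cspg4, the pericyte proteoglycan NG2, had 0.61 (SE 0.23, adjusted p = 0.0505). A p that misses the threshold does not show that the groups were alike.

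Of 27 measured interstitial matrix genes, 9 were higher with PH only (33.3%, against 20.8% of all genes), 2 were lower (7.41%, against 14.9%) and 16 were not called. The median log2 fold change was 0.52, with 0.92 in SD-fed and 0.11 in HFD-fed rats. It was 0.20 without rat 1250 and 1.52 against rat 1250 alone. The 9 genes were the collagens Col1a1, Col3a1, Col5a1, Col5a2, Col6a1 and Col6a2, with Eln, Fbln1 and Fbln2. Eln (elastin) ran from 108 to 309 (median 175) in the PH only rats and was 29.1, 24.6, 47.0, 48.8 and 33.3 in the MMI only rats (2.27, SE 0.29, adjusted p = 0.00126). Col5a1, which seeds collagen fibrils, ran from 82.1 to 193 (median 142) against 24.1, 28.9, 20.7, 53.0 and 23.6 (2.21, SE 0.29, adjusted p = 0.00133). Col6a1, a chain of the microfibrillar type VI collagen, ran from 162 to 260 (median 201) against 37.4, 70.0, 101, 63.3 and 33.1 (1.86, SE 0.27, adjusted p = 0.00136, and 1.02 against rat 1250). None of these overlapped between groups. The SD-fed PH only rats were the higher ones for Eln, with a log2 fold change of 2.88 in SD-fed and 1.60 in HFD-fed rats (interaction adjusted p = 0.288, limma).

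The 2 matrix genes that were lower with PH only, named after their values were seen, both belong to the hyaluronan matrix. Vcan (versican), a large proteoglycan that binds hyaluronan, ran from 10.7 to 153 (median 45.3) and was 447, 223, 63.5, 163 and 171 in the MMI only rats. Rat 1247 was the highest and rat 1250 fell within the PH only range (−2.09, SE 0.62, adjusted p = 0.0212, and −0.62 against rat 1250), and the call was lost without rat 1247. Hapln1, the link protein that stabilizes that binding, ran from 0.810 to 8.30 (median 3.21) against 17.1, 17.0, 5.33, 21.8 and 33.2 (−2.13, SE 0.51, adjusted p = 0.00828, and −0.67 against rat 1250). Its levels were low in all rats.

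Among the matrix remodelling genes, 3 of 19 were higher (Mmp9, Adamts2 and Loxl1) and 1 was lower (Plau). These shares of 15.8% and 5.26% were below the 20.8% and 14.9% of all genes. Loxl1, which crosslinks elastin, ran from 290 to 744 (median 475) in the PH only rats and was 87.2, 186, 240, 114 and 110 in the MMI only rats, without overlap (1.75, SE 0.29, adjusted p = 0.00173, and 0.95 against rat 1250). Mmp9, a gelatinase that degrades type IV collagen, ran from 40.9 to 160 (median 77.4) against 9.74, 19.6, 26.7, 8.25 and 45.0, with overlap in 1 MMI only rat (2.07, SE 0.43, adjusted p = 0.00447). Plau, the urokinase that activates plasminogen, was higher in the MMI only rats, with 13901, 12030, 8224, 8847 and 10956 against 5724 to 10411 (−0.65, SE 0.19, adjusted p = 0.0185, and −0.29 against rat 1250), and its call was lost without rat 1247.

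The TGF-beta pathway, the main inducer of matrix genes, had 9 of 20 measured members higher (45.0%, against 20.8% of all genes) and 1 lower (5%, against 14.9%). The median log2 fold change was 0.24, with 0.13 without rat 1250 and 0.69 against rat 1250 alone. Among the ligands and receptors, Tgfb1, Tgfb3 and Tgfbr2 were higher by 0.81 (SE 0.23, adjusted p = 0.0166, and 1.29 against rat 1250), 1.02 (SE 0.22, adjusted p = 0.00511) and 0.63 (SE 0.14, adjusted p = 0.00526). The latent TGF-beta binding proteins tether the inactive ligand to the matrix. Of these, Ltbp4 (ENSRNOG00000020871) ran from 878 to 2401 (median 1427) in the PH only rats and was 211, 347, 395, 283 and 206 in the MMI only rats, with every PH only rat at more than the highest MMI only rat (2.32, SE 0.25, adjusted p = 0.000729, and 1.83 against rat 1250). Ltbp3 ran from 448 to 867 (median 581) against 167, 287, 261, 339 and 200 (1.27, SE 0.21, adjusted p = 0.00163). The called members included brakes of the pathway as well. Smad6, an inhibitory Smad of the BMP branch, ran from 91.0 to 258 (median 190) against 10.3, 20.8, 75.5, 33.3 and 13.1 (2.76, SE 0.45, adjusted p = 0.00167, and 1.12 against rat 1250). Ski, a repressor of Smad transcription, ran from 370 to 995 (median 629) against 101, 103, 256, 178 and 74.9 (2.18, SE 0.34, adjusted p = 0.00149, and 1.19 against rat 1250). Smad7 and Bmp7, an antagonist of TGF-beta signalling in the kidney, were also called higher. Smad2, a signal transducer of the ligands, was the member called lower, with 367 to 446 (median 422) against 667, 572, 532, 603 and 637 (−0.52, SE 0.10, adjusted p = 0.00362, named after its values were seen). Both Smad6 and Ski were highest in rat 1250 among the MMI only rats.

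**Figure D5:**
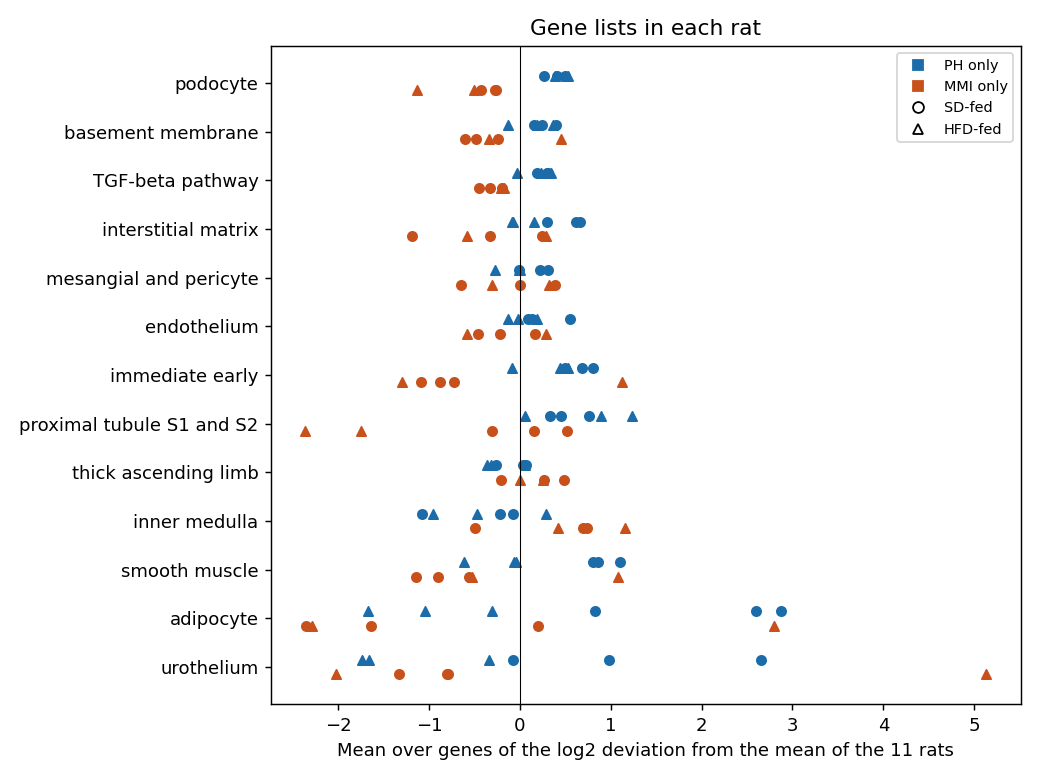
Mean over the genes of each list of the log2 deviation from the mean of the 11 rats, 1 point per rat (circles SD-fed, triangles HFD-fed). The podocyte list was 0.26 to 0.53 in the PH only rats and −1.13 to −0.26 in the MMI only rats. MMI only rat 1255 is the highest point of the urothelium list (5.13) and the lowest of the podocyte list (−1.13).

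Among growth regulators, 4 of 18 genes were higher (22.2%) and 3 were lower (16.7%), shares near the 20.8% and 14.9% of all genes. Cdkn1c, which encodes the cell cycle inhibitor p57 that marks the mature podocyte, ran from 634 to 1234 (median 841) in the PH only rats and was 228, 437, 490, 343 and 510 in the MMI only rats, without overlap (1.16, SE 0.22, adjusted p = 0.00273). Akt1, a kinase upstream of mTOR, was higher by 0.76 (SE 0.18, adjusted p = 0.00723, and 0.32 against rat 1250), while Rheb, the small GTPase that activates mTORC1, was lower with PH only, with −0.55 (SE 0.16, adjusted p = 0.0187, lost without rat 1274, and −0.12 against rat 1250). Igf1, a growth factor, ran from 72.6 to 238 (median 184) and was 970, 709, 227, 484 and 877 in the MMI only rats. Rat 1250 alone fell within the PH only range for Igf1 (−1.86, SE 0.38, adjusted p = 0.00405, and −0.51 against rat 1250).

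Several other genes with the smallest p among those higher with PH only encode matrix or membrane proteins. Megf11 (ENSRNOG00000010634), a transmembrane protein with EGF-like repeats, ran from 541 to 1015 (median 686) in the PH only rats and was 137, 174, 159, 185 and 180 in the MMI only rats, with the 5 MMI only values close together (2.12, SE 0.19, adjusted p = 0.000547, and 2.18 against rat 1250). It was 216, 130 and 120 in the rats with both lesions and 223 and 314 in those with neither. Col16a1, a collagen associated with fibrils, ran from 63.2 to 138 (median 103) against 8.09, 9.98, 13.6, 21.0 and 7.20 (3.05, SE 0.29, adjusted p = 0.000547). Col13a1, a membrane-bound collagen, ran from 54.4 to 119 (median 65.2) against 9.08, 7.95, 17.2, 10.1 and 11.3 (2.64, SE 0.27, adjusted p = 0.000729). Cntfr, the receptor subunit for ciliary neurotrophic factor, ran from 119 to 197 (median 143) against 28.2, 52.0, 37.9, 32.5 and 33.0 (1.99, SE 0.20, adjusted p = 0.000685). In all of these, rat 1250 lay well below the lowest PH only rat. The remaining genes of this set were Ankrd33b, Rassf10, Palm3 and Myorg, with log2 fold changes of 2.25, 2.97, 1.34 and 2.38 and no overlap, of which Ankrd33b had 1.44 against rat 1250.

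The genes with the smallest p among those lower with PH only included Sema6d (ENSRNOG00000004812), an axon guidance ligand, and Tspan6, a tetraspanin. Sema6d ran from 250 to 434 (median 327) in the PH only rats and was 1044, 814, 787, 727 and 816 in the MMI only rats (−1.35, SE 0.15, adjusted p = 0.00104, and −1.27 against rat 1250). Tspan6 ran from 406 to 518 (median 451) against 1052, 927, 734, 972 and 1013 (−1.04, SE 0.12, adjusted p = 0.00104). The groups were far from touching for both genes. Kdelr3, a receptor that returns proteins from the Golgi to the endoplasmic reticulum, ran from 50.7 to 105 (median 75.2) against 285, 318, 144, 209 and 202 (−1.57, SE 0.24, adjusted p = 0.00137, and −0.95 against rat 1250). Vtcn1, an inhibitory B7 family ligand, ran from 11.3 to 38.4 (median 17.1) against 88.4, 109, 50.0, 164 and 95.6 (−2.22, SE 0.34, adjusted p = 0.00145, and −1.31 against rat 1250). For the last pair and for Akr1c13, Tmed6, Veph1, Adgrv1, Lypd6 and Rassf6, all of which were lower without overlap (log2 fold changes −1.56 to −1.02, and −1.08 to −0.51 against rat 1250), rat 1250 was nearer to the PH only rats than most of its group.

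The largest changes by size rested on the 4 MMI only rats that stood apart. Pcsk1n, a granule protein of neuroendocrine cells, was 1.32, 0, 198, 0 and 1.24 in rats 1247, 1248, 1250, 1255 and 1274 and 117 to 347 in the PH only rats (5.52, SE 1.13, adjusted p = 0.00411, and −0.11 against rat 1250). LOC100362999 and Ier5l were likewise at most 4.32 in those 4 rats and at least 35.6 in the others, with log2 fold changes of 5.43 and 5.35 in the 11 rats and −0.87 and 0.73 against rat 1250. Rfxapl1 was 0 in the same 4 rats but also in PH only rat 1275, and 295 to 436 in the other 6 rats (5.25, and −1.77 against rat 1250). A fold change against values near 0 depends on the pseudocount. Fam222a and Dkc1 differed from rat 1250 as well, by 2.49 and 2.07. Dkc1, which encodes the pseudouridine synthase dyskerin, ran from 1759 to 6816 (median 3542) in the PH only rats and was 33.9, 51.6, 873, 160 and 41.6 in the MMI only rats, without overlap (5.17, SE 0.71, adjusted p = 0.00135). Among the lower genes, the largest changes were those of RGD1309362, Nrip3, Rab9b, Alox15b, Slc14a1 and Aqp4 (−3.16 to −2.35, and −1.98 to 0.03 against rat 1250), whose groups all overlapped. Rat 1255 had the highest value of all 11 rats for each of these 6 genes. The calls of RGD1309362, Nrip3 and Alox15b were lost on leaving out any of 7, 8 and 7 rats, that of Rab9b without rat 1274, and that of Rfxapl1 on leaving out any of 9. Aqp4, at 347 to 1141 (median 517) in the PH only rats and 2114, 2161, 751, 11688 and 3820 in the MMI only rats, had −2.35 (SE 0.55, adjusted p = 0.00754), with −1.82 without rat 1255 and −0.48 against rat 1250.

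Gsta3, Xkr4, Cog4 and Phyhipl had been singled out by lesion on these same samples, so that their direction is not independent evidence. Gsta3 (ENSRNOG00000056847), a glutathione S-transferase of the alpha class, ran from 287 to 650 (median 390) in the PH only rats and was 1112, 996, 1012, 1025 and 853 in the MMI only rats (−1.32, SE 0.19, adjusted p = 0.00136, and −1.34 against rat 1250). All PH only rats were lower, the rats with both lesions lay at 583, 673 and 481, and those with neither at 1106 and 1202. Phyhipl (ENSRNOG00000000274), a phytanoyl-CoA hydroxylase interacting protein, ran from 552 to 1186 (median 658) against 1905, 2290, 2377, 1585 and 1837 (−1.49, SE 0.19, adjusted p = 0.00126, and −1.75 against rat 1250). It was 1726, 2673 and 1693 in the rats with both lesions and 857 and 765 in those with neither, so that the rats without mesangial lesion were the low ones. Xkr4, a member of the XK family of phospholipid scramblases, ran from 9.88 to 12.8 (median 12.2) against 4.36, 2.99, 5.26, 4.39 and 2.45 (1.40, SE 0.28, adjusted p = 0.00372), at low levels in both groups. Cog4, a subunit of the complex that tethers vesicles at the Golgi, ran from 1009 to 1132 (median 1057) against 1265, 1365, 1264, 1200 and 1215. This is a small but complete separation (−0.25, SE 0.09, adjusted p = 0.0406), and the call was lost on leaving out any of 9 rats.

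The relatives of these genes did not all move with them. Of 18 measured glutathione S-transferases, which share sequence so that reads of close copies may be split, Gsta3 and Gstm2 were lower and Gstt1 was higher with PH only, the last losing its call on leaving out any of 5 rats and turning to −0.15 against rat 1250. The shares were 5.56% higher and 11.1% lower, against 20.8% and 14.9% of all genes. Of 8 COG subunits, Cog4, Cog5 and Cog6 were lower (37.5%, against 14.9% of all genes). Cog1, Cog2 and Cog8 were higher (37.5%, against 20.8%), and Cog2 turned to −0.23 against rat 1250. Cog6 ran from 424 to 446 against 531, 519, 566, 591 and 551 (−0.34, SE 0.09, adjusted p = 0.0143), and Cog8 ran from 710 to 846 against 376, 584, 682, 414 and 387 (0.71, SE 0.16, adjusted p = 0.00637, and 0.19 against rat 1250). Opposite changes therefore occurred within 1 complex. Among NRF2 targets and antioxidant genes, 2 of 17 were higher (11.8%, against 20.8% of all genes) and 3 were lower (17.6%, against 14.9%). The median of the list was 0.21, but −0.37 against rat 1250. Keap1, the repressor of NRF2, ran from 1046 to 1632 against 448, 647, 882, 703 and 602 (0.95, SE 0.17, adjusted p = 0.00212, and 0.49 against rat 1250), and Nqo1, an enzyme that NRF2 induces, ran from 132 to 299 against 353, 345, 324, 695 and 290 (−1.09, SE 0.26, adjusted p = 0.00792).

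In the tubule, 5 of 16 measured genes of the first proximal segments were called higher with PH only (31.2%, against 20.8% of all genes), 0 were called lower and 11 were not called. The 5 were Slc5a2, Slc34a1, Slc34a3, Slc22a6 and Pck1, of which Slc34a3 turned to −0.04 against rat 1250. The median log2 fold change was 1.34. The median was 0.18 in SD-fed rats, 2.74 in HFD-fed rats, 0.07 against rat 1250 and 0.83 without rat 1255, and the HFD-fed MMI only rats 1255 and 1274 were far below the rest, with summed levels of 87497 and 95284 against 219046 to 376702 in the PH only rats. Slc34a1, the main phosphate transporter, ran from 37911 to 65707 (median 50604) and was 11745, 14606, 34845, 10178 and 7487 in the MMI only rats, without overlap (1.89, SE 0.32, adjusted p = 0.00187, and 0.53 against rat 1250). Pck1, the rate-limiting enzyme of gluconeogenesis, ran from 64744 to 142753 (median 100450) against 42380, 40671, 66966, 18136 and 20162 (1.51, SE 0.34, adjusted p = 0.00680, and 0.51 against rat 1250). The difference of Pck1 was 0.58 in SD-fed and 2.71 in HFD-fed rats (interaction adjusted p = 0.0915, limma). Slc5a2, the glucose transporter SGLT2, was 9.28 and 18.8 in rats 1255 and 1274 and 673, 163 and 830 in the SD-fed MMI only rats, within the PH only range of 317 to 2616 in 2 of these 3. Its call was lost without rat 1255 or rat 1274. The log2 fold change of Slc5a2 was 3.50 in the 11 rats and 0.63 against rat 1250, and that of Slc22a6 was 1.71 and 0.20. Slc7a13, a transporter of the last proximal segment, was the 1 of 6 genes of that segment that passed the test (16.7%). It was lower with PH only (14.9% of all genes), with 45706 to 66673 against 69866, 77142, 71479, 82261 and 91762 (−0.50, SE 0.15, adjusted p = 0.0235). Its call was lost without rat 1244, 1246 or 1274.

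Of 10 thick ascending limb genes, 5 were lower (50.0%, against 14.9% of all genes) and 2 higher (20.0%, against 20.8%), with a median of −0.49 (0.07 against rat 1250). Egf, the growth factor precursor made there and in the distal tubule, ran from 11487 to 15112 (median 13861) and was 34558, 29668, 13832, 20728 and 28606 in the MMI only rats, with rat 1250 inside the PH only range (−0.85, SE 0.21, adjusted p = 0.00916, and −0.04 against rat 1250). Cldn10, a claudin of the paracellular sodium route, ran from 2814 to 3708 (median 3483) against 6086, 5089, 4695, 4335 and 5268, without overlap (−0.57, SE 0.11, adjusted p = 0.00372). In the distal convoluted tubule Slc12a3, Wnk4 and Klhl3 were higher (33.3%, against 20.8% of all genes) and Stk39 was lower (11.1%, against 14.9%), of 9 genes. The median of this list was 0.71, with −0.14 in SD-fed rats, 1.40 in HFD-fed rats and 0.45 against rat 1250. Slc12a3 had a log2 fold change of 0.28 in SD-fed and 1.57 in HFD-fed rats. Klhl3 had a log2 fold change of 1.39 in the 11 rats and 0.62 against rat 1250. The call of Slc12a3 was lost without rat 1274, and Stk39 turned to 0.18 against rat 1250. Among intercalated cell genes Slc26a4, Slc4a9 and Insrr were higher, of 10 genes (30%, against 20.8% of all genes). Their log2 fold changes were 0.84, 1.36 and 1.60 in the 11 rats, and 0.11, 0.51 and 0.68 against rat 1250. Inner medullary genes had 3 of 7 lower (42.9%, against 14.9% of all genes), which were Slc6a12, Nfat5 and Slc4a11. The median of this list was −1.16, but −0.44 without rat 1255 and 0.05 against rat 1250, against which Slc4a11 also turned to 0.05. Nfat5, the transcription factor of the response to high salt, ran from 1314 to 1943 (median 1750) against 5125, 3441, 1632, 4533 and 5646 (−1.16, SE 0.27, adjusted p = 0.00738, and 0.04 against rat 1250). Of 9 tubular injury markers, Spp1, Cd24 and Lcn2 were lower (33.3%, against 14.9% of all genes) and Krt8 was higher (11.1%, against 20.8%), the last losing its call on leaving out any of 5 rats. Lcn2 turned to 0.24 against rat 1250. Spp1 (osteopontin) ran from 3848 to 10070 (median 5233) against 18816, 16874, 10680, 11338 and 27527, without overlap (−1.47, SE 0.29, adjusted p = 0.00316, and −0.88 against rat 1250). Cd24, a surface protein of immature and injured tubule cells, ran from 4003 to 5701 (median 4891) against 14388, 13167, 6043, 18343 and 15697 (−1.39, SE 0.24, adjusted p = 0.00204, and −0.32 against rat 1250). The median of the injury list was −0.40, but −0.02 without rat 1255, and it turned to 0.20 in SD-fed rats and to 0.55 against rat 1250.

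In the vessels, Tie1, Plvap, Eng and Egfl7 were higher with PH only, of 12 endothelial genes (33.3%, against 20.8% of all genes), all without overlap. Eng (endoglin), a TGF-beta co-receptor of endothelium, ran from 1203 to 2069 (median 1399) and was 613, 1024, 839, 637 and 697 in the MMI only rats (1.00, SE 0.17, adjusted p = 0.00210). Of 8 smooth muscle genes, Tagln and Smtn were higher (25.0%, near the share of all genes), and both encode proteins of the contractile cytoskeleton. The median log2 fold change of this list was 0.60, with 1.97 in SD-fed rats, −0.33 in HFD-fed rats and 1.61 against rat 1250. Tagln ran from 808 to 2071 (median 1252) against 442, 629, 404, 620 and 585 (1.26, SE 0.26, adjusted p = 0.00444), with 1.92 in SD-fed and 0.55 in HFD-fed rats (interaction adjusted p = 0.124, limma). Agt, which encodes angiotensinogen, ran from 2046 to 3159 (median 2600) against 368, 784, 1526, 1523 and 585, without overlap (1.61, SE 0.33, adjusted p = 0.00389, and 0.74 against rat 1250).

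Of 12 macrophage genes, the complement subunits C1qa, C1qb and C1qc were higher (25.0%, near the 20.8% of all genes). The other 9 were not called, and 7 of the 12 had a positive log2 fold change. The median of this list was 0.10, with 0.36 in SD-fed and −0.47 in HFD-fed rats. It was −0.22 without rat 1250 and 0.40 against rat 1250. Adgre1, another member, had −0.69 (SE 0.30, adjusted p = 0.0882, and −0.06 against rat 1250). Of 11 lymphocyte genes Prf1 was higher (9.09%, against 20.8% of all genes). C1qc ran from 366 to 939 (median 528) and was 64.3, 137, 204, 190 and 175 in the MMI only rats (1.93, SE 0.33, adjusted p = 0.00183). Of 13 measured chemokine and inflammation genes, Cx3cl1 was higher (7.69%, against 20.8% of all genes) and Cxcl10 was lower (7.69%, against 14.9%). The other 11 were not called. Cxcl10 ran from 56.3 to 86.1 in the PH only rats against 114, 176, 60.4, 258 and 198 (−1.07, SE 0.32, adjusted p = 0.0211, and 0.17 against rat 1250). Its call was lost without rat 1248 or rat 1274, while Cx3cl1 kept its call on leaving out each rat. The alpha globins Hba1, Hba-a1 and Hba-a2 were higher, of 7 red blood cell genes (42.9%, against 20.8% of all genes), and they are near-identical copies whose reads may be split. Their log2 fold changes were 1.71, 1.11 and 1.72 in the 11 rats, and 0.60, 0.23 and 0.66 against rat 1250. Red blood cell genes summed to 21875 to 105656 in the PH only rats and 12934 to 36240 in the MMI only rats.

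Of 13 immediate early genes, Jun, Junb, Ier2, Socs3 and Zfp36 were higher with PH only (38.5%, against 20.8% of all genes). Of 15 circadian clock genes, Per1, Per2, Per3, Nr1d1, Dbp and Hlf were higher (40.0%), and 0 genes were lower in either list (14.9% of all genes). The median log2 fold change of the immediate early list was 0.81, with 1.46 in SD-fed and 0.15 in HFD-fed rats. MMI only rat 1255 had the highest mean log2 deviation of that list, 1.13 against −0.09 to 0.80 in the PH only rats. Junb, an AP-1 transcription factor, ran from 636 to 1853 (median 1230) and was 28.3, 33.8, 447, 211 and 28.7 in the MMI only rats (3.91, SE 0.67, adjusted p = 0.00193, and 1.39 against rat 1250). Per1, a repressor of the clock, ran from 792 to 2123 (median 1253) against 247, 281, 525, 707 and 317 (1.80, SE 0.32, adjusted p = 0.00218). Neither gene overlapped. Adm, the vasodilator adrenomedullin, ran from 95.3 to 156 (median 122) against 34.1, 30.4, 81.0, 26.2 and 56.1 (1.50, SE 0.28, adjusted p = 0.00270, and 0.56 against rat 1250). The small GTPases Rac1, Rhoa and Cdc42, which steer the actin cytoskeleton of podocytes and other cells, were lower with PH only together with Actr3, of 16 genes of that list (25.0%, against 14.9% of all genes), with 0 higher, and Actr3 lost its call without rat 1247 or rat 1274. Rac1 ran from 2644 to 3650 (median 3223) against 5421, 5911, 4111, 5293 and 5804, without overlap (−0.72, SE 0.12, adjusted p = 0.00187, and −0.36 against rat 1250).

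Among metabolic genes, fatty acid oxidation had 0 of 16 genes called in either direction by limma (20.8% higher and 14.9% lower of all genes), with a median log2 fold change of −0.17. Of 6 lipogenic genes, Fasn and Srebf1 were higher (33.3%) and Me1 was lower (16.7%). Fasn (fatty acid synthase) ran from 2676 to 12244 (median 7138) and was 1173, 1530, 2761, 4038 and 1635 in the MMI only rats, with rats 1250 and 1255 inside the PH only range (1.73, SE 0.40, adjusted p = 0.00759). The log2 fold change of Fasn was 2.34 in SD-fed and 1.00 in HFD-fed rats. Of 10 cholesterol genes, 3 were lower (30%, against 14.9% of all genes), Hmgcs1 and Idi1 of the synthesis pathway among them. Dhcr7 was higher (10%, against 20.8% of all genes). Oxidative phosphorylation had 2 of 23 higher and 2 lower (8.70% each way, against 20.8% and 14.9% of all genes). The 13 mitochondrially encoded mRNAs, added after the data were seen, had 0 called in either direction. They made up 17.9% to 29.6% of the total over all 16 libraries. The proteasome had 3 of 31 higher (9.68%, against 20.8% of all genes) and 6 lower (19.4%, against 14.9%). Splicing factors had 6 of 31 higher (19.4%) and 4 lower (12.9%), so that the splicing shares were near those of all genes.

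Rats outside the comparison fell between the groups or with the MMI only rats. For the 1926 genes called with a log2 fold change over 1 or under −1, each rat was placed on a scale where the MMI only mean is 0 and the PH only mean is 1. The median position was 0.60 and 0.49 in rats 1256 and 1267 with both lesions, 0.51 and 0.49 in rats 1249 and 1251 with neither, and −0.28 in rat 1252 with both. The genes were chosen on the 11 rats, and these 5 positions are a description without a test. In the podocyte list the rats with both lesions had mean log2 deviations of −0.24, 0.19 and 0.06 and those with neither −0.18 and −0.35, all below the lowest PH only rat.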

How the data were processed

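Kidney mRNA libraries (directional, 1 per rat) were adapter-trimmed with Cutadapt and quantified with Salmon against Rnor6.0 by the authors. The deposited table holds 14747 genes by 16 rats as normalized counts, which are not whole and are treated as a signal. How the authors scaled this signal is not given in the sources used here; they tested with DESeq2 1.24.0, per the labels. Its columns of the authors' HFD against SD comparison were not used, and the small RNA tables were not used here. Whole reads could not be recovered: with steps of 0.898 to 1.20, only 6.27% to 15.5% of low values were whole multiples within 0.01, so that no count test was run, read depth per gene is unknown, and no counting interval is given. The number of per-sample columns left unused was 0.

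Genes with a mean of at least 5 over the 16 libraries were tested on log2(value + 1), which understates the change of low genes, with limma 3.58.1 (R 4.3.3) between the 6 PH only and 5 MMI only rats. Adjusted p (Benjamini-Hochberg over all 13673 genes) under 0.05 was called, and fold changes are PH only minus MMI only. The fit within diets, the interaction and the fit against rat 1250 used limma as well. A p-value measures the spread between these rats, and the lesion groups were not randomized. Principal components and distances used the same values, with exact permutation of rats. The named genes were, among those called with a log2 fold change over 1 in size, the 12 per direction with the smallest p, the 6 per direction with the largest change and a mean of at least 50, up to 4 members per list by smallest p, and 4 genes of the study; some of these are not reported here. Members and lists were chosen with earlier results of these data known. The alternatives were another pseudocount (0.5 or 5), filter or scaling, robust variance, array weights, diet as a covariate, all 16 libraries, leaving out rats 1246 and 1248, and leaving out each rat. Added after seeing the data were leaving out the 4 rats that stood apart and removing a trend over gene span. The scripts were tested on simulated data. Sequences were read from RefSeq (GRCr8) with Python 3.11.15, and figures were drawn with matplotlib 3.10.9.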

Additional observations from a re-analysis of the deposited data

Results flagged for a closer look

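Of 320 group values examined (the genes and lists described, and the first component, in each lesion group), 21 held a rat far from the rest of its group by Dixon's test, where chance marks about 1 in 20 groups. Rat 1250 was the distant rat of the MMI only group for Lypd6 (247), Pcsk1n (198), LOC100362999 (422), Ier5l (79.9), Rfxapl1 (436) and Hlf (272), all in normalized counts, for the NRF2 list (mean log2 deviation 0.43) and for the first component (−21.7). Rat 1255 was the distant rat of the same group for Wt1 (21.9) and Nqo1 (695) in normalized counts, and for the mean log2 deviation of the cell cycle (1.46), immediate early (1.13), podocyte (−1.13), smooth muscle (1.08) and urothelium (5.13) lists. In the PH only group the distant values were spread over the rats, with Adgrv1 at 653 in rat 1245, Nrip3 at 506 in rat 1271, Wt1 at 187 in rat 1246, Psmb5 at 4555 in rat 1244, and Cldn10 at 2814.5 and Rfxapl1 at 0 in rat 1275.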

How the results depend on the processing

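No paired analysis was possible because each rat gave 1 kidney mRNA library, so that no rat is in both groups. The 4 counts of calls (2845 higher, 2038 lower, 1687 over 1 and 239 under −1 on the log2 scale) stayed within 1.5 times under the other pseudocounts, filters, scalings, robust variance, the diet covariate and all 16 libraries. Array weights gave 3279 lower and 459 under −1. Without rats 1246 and 1248 the counts were 1874 higher, 872 lower and 133 under −1. Leaving out 1 rat gave 2121 to 3614 higher, 1006 to 3229 lower, 1413 to 2096 over 1 and 130 to 526 under −1, while the distance difference was 34.3 to 56.9 and that of the first component 89.3 to 115. With the trend over gene span removed, 2637 were higher and 2637 lower, and 4325 of the 4883 genes kept their call. Without rats 1247, 1248, 1255 and 1274, which leaves rat 1250 as the only MMI only rat, the counts were 5 higher, 0 lower, 5 over 1 and 0 under −1. Of the 113 called genes followed through these settings, signs then turned in 11. These were Pcsk1n (−0.11), LOC100362999 (−0.87), Rfxapl1 (−1.77), Slc14a1 (0.027), Plce1 (0.19), Nfat5 (0.037), Gstt1 (−0.15), Cxcl10 (0.17), Psmb5 (−0.042), Canx (0.058) and Mcm6 (0.16). Slc34a3, Cog2, Stk39, Slc4a11 and Lcn2, described above, were not among those followed and turned as well. Podxl turned to −0.10 without rat 1255 and reached 0.38 without rat 1274. The causes were not tested. Low genes are limited by the unknown read depth, and 1 MMI only rat outside the 4 allows no estimate of spread in its group.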
